A study of Mus musculus with 7 samples.

Results

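The genes of the respiratory chain and the ATP synthase, which together carry out oxidative phosphorylation in the inner mitochondrial membrane, were followed across 7 arrays of mouse colon RNA. Members were the genes whose array symbol begins with Nduf, Sdha, Sdhb, Sdhc, Sdhd, Uqcr, Cox4 to Cox8, Cox10 to Cox19 or Atp5, together with Cycs and Cyc1. They numbered 79 of the 8251 genes with a symbol of their own, read by 108 probe sets. A further 11 probe sets carried several symbols and were left out. Of the 79 members, 63 reached a signal of 100 in their highest RNA pool, as did 4316 genes in all. These 63 were 26 of 31 members of complex I, all 6 of complex II, all 8 of complex III, 11 of 19 of complex IV, 11 of 14 of complex V, and Cycs.

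Female CD-1 outbred mice, aged 10 to 12 weeks at the start, received 6 enemas, either of TNBS (trinitrobenzene sulphonic acid, which haptenates proteins of the gut wall and brings on colitis) in ethanol or of saline. The week 6 TNBS pool joined RNA of 6 mice killed 3 days after the enemas, the week 8 TNBS pool that of 4 mice after 2 weeks, the week 10 TNBS pool that of 5 mice after 4 weeks and the week 12 TNBS pool that of 4 mice after 6 weeks. The week 6 saline pool joined 5 mice, killed 3 days after the enemas, and has 2 arrays; the later saline pool joined 4 mice, of which 2 were killed after 2 weeks and 2 after 4 weeks, and served as the control of the week 8, week 10 and week 12 TNBS pools. Every group was thus treated as 1 pool of an outbred strain, no group received ethanol alone, and no saline pool was as old as the week 12 mice. Tissue was taken 4 ± 0.5 cm from the anus. In whole colon RNA, fewer cells of a type and less RNA per cell cannot be told apart.

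Complex I, the NADH dehydrogenase, and complex II, the succinate dehydrogenase of the tricarboxylic acid cycle, feed electrons to ubiquinone. Complex III hands them to cytochrome c, complex IV passes them to oxygen, and complex V, the ATP synthase, makes ATP from the proton gradient that complexes I, III and IV build. Complexes I, III, IV and V join catalytic core subunits to many accessory subunits, whereas complex II has core subunits alone; the subunits encoded by mitochondrial DNA lie outside the rule and were not analysed here. The colonic epithelium is known for burning butyrate, a product of gut bacteria, in its mitochondria.

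The promoters of these genes are known for sites of the nuclear factors NRF1, GABP (an ETS factor) and YY1. RefSeq promoter sequences (GRCm38.p6, 250 bases before to 50 after a start site) were matched for 63 of the 79 members and 27025 genes in all. Both strands were searched for 4 motifs, none of which overlapped another in the sequences shown. The NRF1 motif, GCGCA followed directly by its reverse complement, lay in 5 members (7.94%) and in 1.07% of all genes. Among genes that passed the signal filter and have a promoter entry, it lay in 8.33% of 48 members and 2.63% of 3497 genes. The ETS motif CCGGAAG lay in 20 members (31.7%) against 9.93% of all genes, and after the filter in 35.4% against 21.6%. The YY1 motif AAGATGGCG lay in 5 members (7.94%) against 1.64%, and after the filter in 6.25% against 3.83%. The oestrogen-related receptor motif TCAAGGTCA lay in 1 member, Sdhd (1.59%), against 0.466%, and after the filter in 2.08% against 0.343%. A match is a description of letters and not a measured site.

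Shown here are the 150 bases just before the start site of 5 members to which the values return: Atp5j, Uqcrh and Cox7b, which were high in the week 8 TNBS pool, Ndufs3, which was low in the week 6 TNBS pool, and Atp5k, which was low in the week 12 TNBS pool. Capitals mark a motif match on either strand. Atp5j is shown at the start site that has matches, and Cox7b has none.
Atp5j promoter, chr16:84834977-84835126, minus strand: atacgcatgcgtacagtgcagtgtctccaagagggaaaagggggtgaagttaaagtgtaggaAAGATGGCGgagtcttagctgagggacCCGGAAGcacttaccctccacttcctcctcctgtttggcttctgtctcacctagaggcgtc
Uqcrh promoter, chr4:116075071-116075220, minus strand: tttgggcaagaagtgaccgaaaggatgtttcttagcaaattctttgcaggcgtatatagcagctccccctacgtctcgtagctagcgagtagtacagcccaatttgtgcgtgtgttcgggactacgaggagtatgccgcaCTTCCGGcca
Cox7b promoter, chrX:106015550-106015699, plus strand: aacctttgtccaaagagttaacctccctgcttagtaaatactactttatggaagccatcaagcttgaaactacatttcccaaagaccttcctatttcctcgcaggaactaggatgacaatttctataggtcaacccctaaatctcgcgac
Ndufs3 promoter, chr2:90904722-90904871, minus strand: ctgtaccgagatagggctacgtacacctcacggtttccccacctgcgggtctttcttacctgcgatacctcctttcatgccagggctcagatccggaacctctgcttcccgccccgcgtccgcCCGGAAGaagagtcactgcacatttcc
Atp5k promoter, chr5:108434400-108434549, minus strand: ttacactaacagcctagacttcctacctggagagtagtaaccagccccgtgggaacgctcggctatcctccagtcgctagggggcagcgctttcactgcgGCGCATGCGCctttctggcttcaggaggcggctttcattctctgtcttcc
The capitals are a YY1 match followed by an ETS match in Atp5j, an ETS match in Uqcrh and in Ndufs3, and an NRF1 match in Atp5k. Atp5k also has an ETS match that the bases shown do not hold in full.

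Each value is a linear signal intensity, scaled by the authors to a target of 150, and medians of the arrays lay between 51.8 and 61.2. Differences are given as log2 differences, after values under 50 were raised to 50, or as the fold they stand for. Between the repeat arrays of week 6 saline, the 63 members differed with an SD of 0.19 (log2), against 0.29 over all genes, and no member differed 1.5-fold between them, where 2.69% of genes were at least 1.5-fold higher on the second array and 2.64% lower. Both arrays are labelled as RNA pooled from 5 mice, of a group of 5, and were treated as 1 pool; whether pooling or labelling was repeated is not stated, and this spread was not taken as one between mice. The number of arrays limits the precision: 1 pool on each side allows no test of a matched comparison. The signal of the beta-actin control at its 3' end, divided by that at its 5' end, reflects how intact and how fully labelled an RNA was. It lay between 1.14 and 1.24 for the 3 week 6 arrays and between 0.798 and 0.818 for the 4 later ones. The same ratio of the Gapdh control did not separate them, at 0.912 to 0.942 for the week 6 arrays and 0.869 to 1.00 for the later ones. The part of either ratio in the results was not tested.

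As a set, the members were slightly low in the TNBS pool 3 days after the enemas and high in the pool 2 weeks after them. The median log2 difference of the 63 genes was -0.082 at week 6 (all 4316 genes, -0.019), 0.11 at week 8 (-0.067), -0.048 at week 10 (-0.0041) and -0.11 at week 12 (0). At week 6, 43 members lay below their saline pool and 20 above it (of 4316 genes, 2269 and 2041). At week 8, 21 lay below and 42 above (all genes, 2440 and 1847). The counts were 39 below and 24 above at week 10 (all genes, 2184 and 2109), and 48 below and 15 above at week 12 (2145 and 2149). The week 8, 10 and 12 differences share 1 saline pool. In it the members were themselves higher than in the week 6 saline pool, with a median of 0.11 and 45 of 63 above. All genes had a median of 0.012 there, with 2225 of 4316 above. Against the week 6 saline pool the medians at week 10 and week 12 were 0.13 and 0.022, of the opposite sign, while that at week 8 was 0.20. The medians at week 6 and week 8 kept their direction against either saline pool. Scaling the arrays to equal medians raised the median of all genes to 0.11 at week 8 and 0.13 at week 10, and turned the members' week 10 median to 0.089; relative to all genes the members lay 0.18 higher at week 8 under this and the deposited scaling. Quantile normalization took the week 8 median to 0.017, or 0.043 above all genes. The medians of 14 absorptive colonocyte markers were -0.077, 0.16, -0.17 and -0.22 in the same 4 comparisons, with the signs of the members' medians. That list was uneven at week 6. Fabp2, Car4, Aqp8 and Car1 lay at -1.16, -1.01, -0.64 and -0.52, whereas Krt19, Krt8, Epcam and Lgals4 lay between -0.051 and 0.055. Goblet cell markers (-0.22, 0.54, -0.20 and -0.35 over 5 genes) and smooth muscle markers (-0.16, 0.0028, -0.17 and -0.40 over 9 genes) also had the signs of the members' medians. The smooth muscle value at week 8 was that of Cnn1 and close to no difference. Cytosolic ribosomal protein genes, given below and no marker of a cell type, had these signs as well. The part of these lists in the members' values was not tested.

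Most single differences were small. At week 6, 5 members were at least 1.5-fold lower (all genes, 5.93%) and none at least 1.5-fold higher (all genes, 7.55%). At week 8, 5 were at least 1.5-fold higher (all genes, 6.56%) and 1 lower (9.78%). At week 10 and at week 12, 2 members were at least 1.5-fold lower (all genes, 6.28% and 5.38%) and none higher (4.89% and 4.84%). In the 4 comparisons together, 13 members (20.6%) passed 1.5-fold at least once, where 35.6% of all genes did, and Atp5j at week 8 passed 2-fold (all genes 2-fold higher at week 8, 1.53%). On the deposited scale and with the paired saline pools, the shares of members at 1.5-fold were near or under those of all genes in each comparison. The week 8 count depended on both choices: with equal array medians 14 members (22.2%) were at least 1.5-fold higher, against 12.6% of genes, with week 6 saline as control 15 (23.8%) against 12%, and after quantile normalization 3 (4.76%) against 7.65%.

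**Figure D1:**
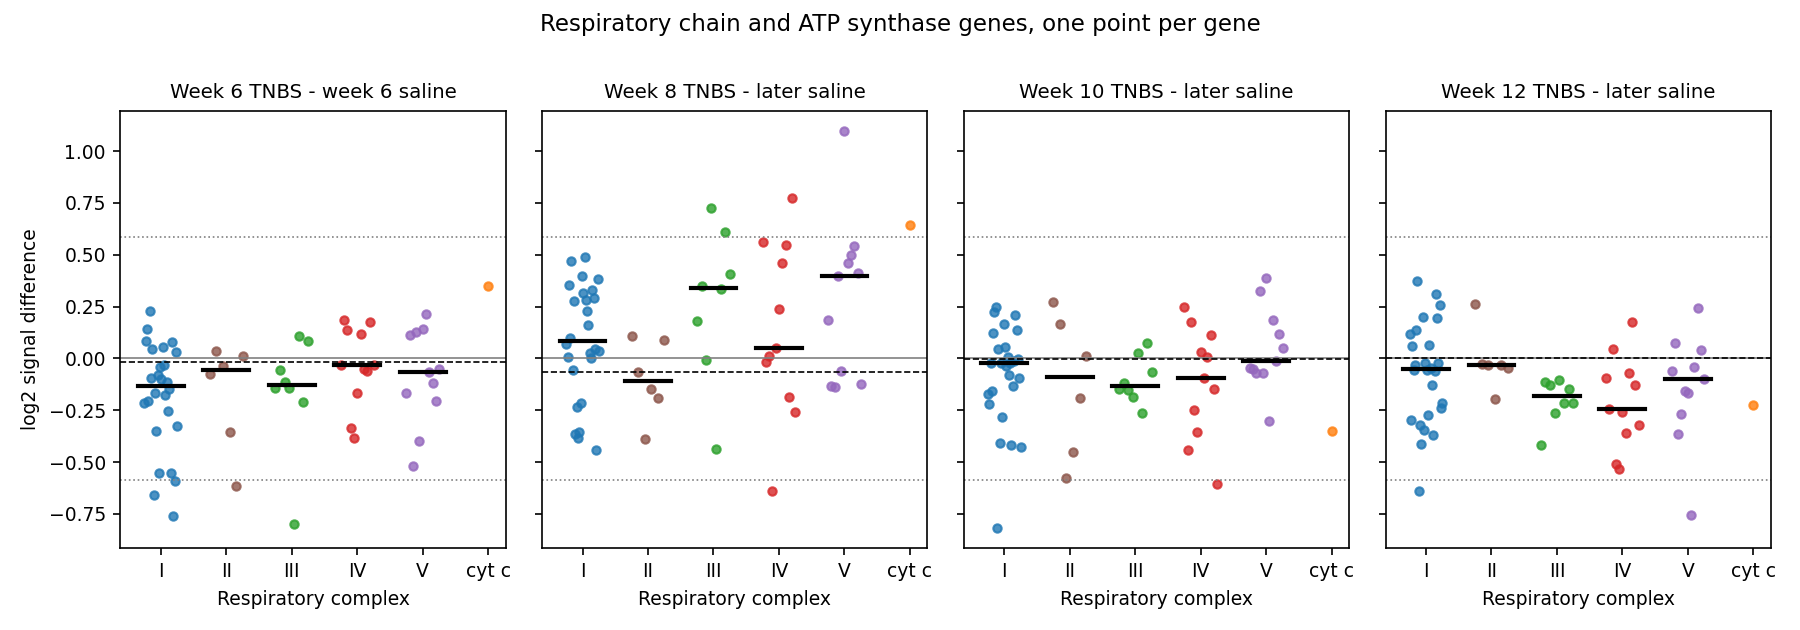
Log2 signal difference between each TNBS pool and its saline pool (vertical axis) for the 63 genes that passed the signal filter, by respiratory complex (horizontal axis; cyt c is Cycs), 1 point per gene. Thick bars are medians of a complex, the dashed line is the median of all 4316 genes, and dotted lines mark 1.5-fold. Complexes III, IV and V reach highest at week 8, with Atp5j at 1.10, and all 8 genes of complex III lie below 0 at week 12.

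Highest values of the members fell most often in the week 8 TNBS pool and lowest values most often in the week 6 TNBS pool. The week 8 TNBS pool was the highest of the 6 pools for 35 of 63 members (55.6%) and for 19.2% of all genes. The week 6 TNBS pool was the lowest for 26 members (41.3%) and for 18.4% of all genes. It was the highest for 1 member (1.59%), Cox18, against 17.7%. The same held in part for strong signals at large: among the 366 genes with a geometric mean signal of at least 1000, 39.3% were highest in the week 8 TNBS pool and 33.6% lowest in the week 6 TNBS pool. Among the 32 members of that strength the shares were 78.1% and 56.2%. The median difference at week 8 was 0.30 over these 32 members and 0.12 over the 366 genes. After quantile normalization 24 of 63 members (38.1%) were highest in the week 8 TNBS pool, against 20.7% of all genes, and 26 (41.3%) were lowest in the week 6 TNBS pool, against 20.4%.

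**Figure D2:**
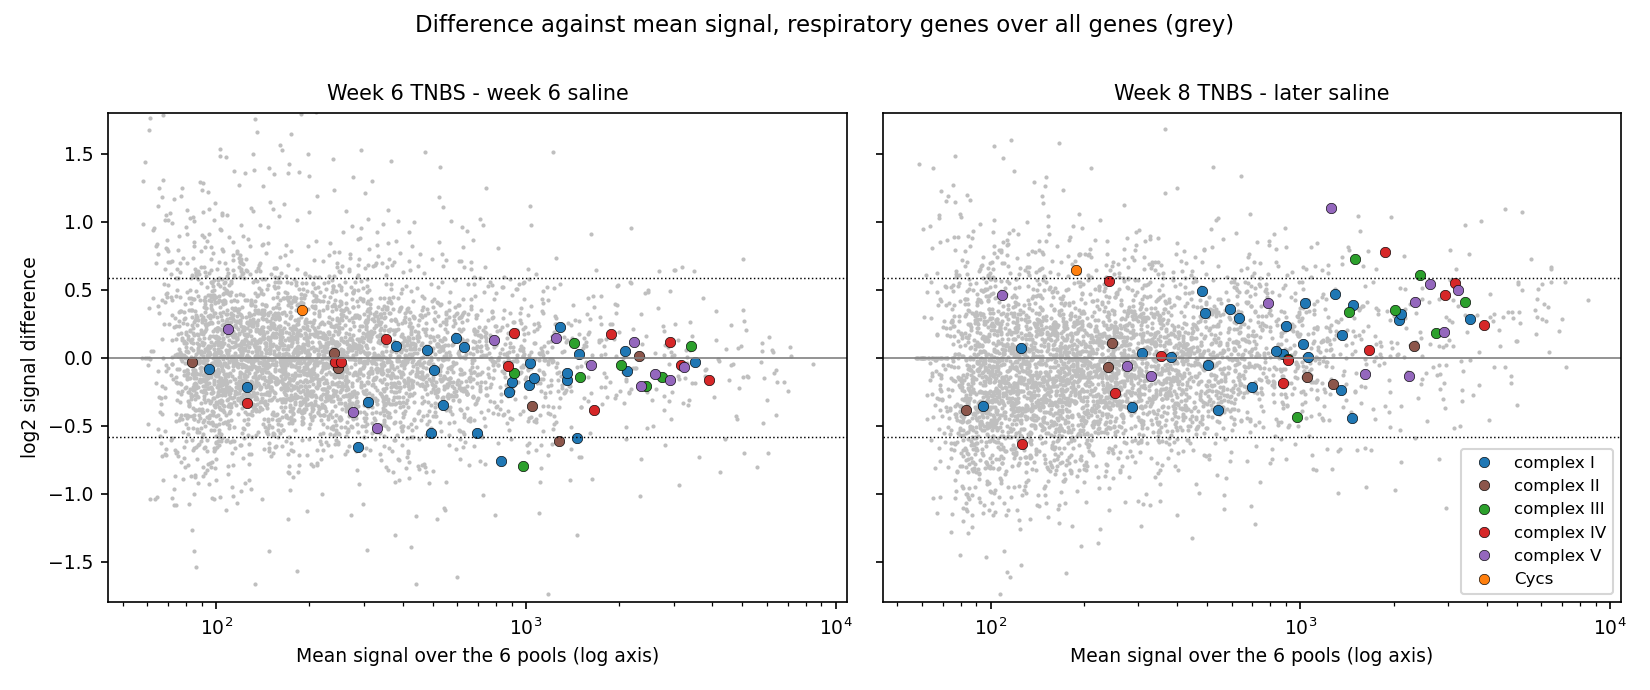
Log2 signal difference at week 6 and week 8 (vertical axis) against the geometric mean signal over the 6 pools (horizontal log axis), with respiratory genes coloured by complex and all other genes in grey; dotted lines mark 1.5-fold. At week 8 grey and coloured points shift upward with signal, and most members above 1000 lie above 0; 39 genes lie beyond the plotted range of 1.8 in either direction, none of them a member.

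**Figure D3:**
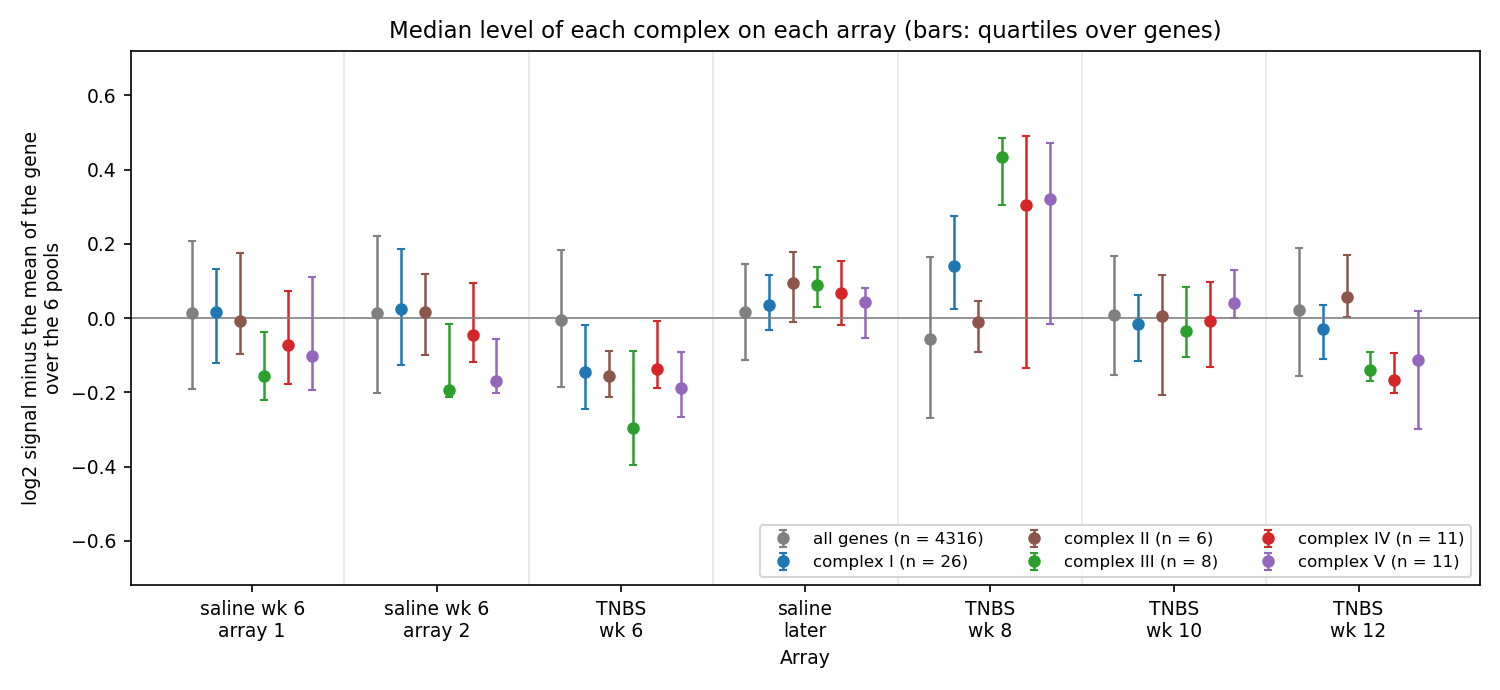
Median log2 signal of each complex on each of the 7 arrays, relative to the mean of each gene over the 6 pools (vertical axis); bars span the quartiles over genes, and grey points are all 4316 genes. The week 8 TNBS array stands highest for complex III (0.43), complex V (0.32) and complex IV (0.31), and the week 6 TNBS array lowest for complex III (-0.30).

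Complex I is the largest of the 5 complexes. Its 26 genes had median differences of -0.13 at week 6, 0.083 at week 8, -0.023 at week 10 and -0.050 at week 12. At week 6, 19 of the 26 lay below saline, and 3 were at least 1.5-fold lower. The core subunits Ndufs3 and Ndufv1 and the accessory subunit Ndufa8 were those 3.

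Ndufs3, a core subunit of the arm that reaches into the matrix, read 913.8 and 982.9 on the week 6 saline arrays and 559.2 in the week 6 TNBS pool. It read 867.6 in the later saline pool and 895.1, 953.7 and 854.1 in the TNBS pools of weeks 8, 10 and 12. The week 6 TNBS pool alone was low, and the other 6 arrays lay close together. The difference was 1.69-fold at week 6 and at most 1.10-fold later. The later TNBS effect exceeded that at week 6 by 0.81 ± 0.32 (log2, SE; unadjusted p = 0.049, adjusted p = 0.999, limma's interaction term), which did not pass.

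Ndufv1, which holds the NADH site and the flavin, read 1624.4 and 1839.4 in week 6 saline, 1149.1 in week 6 TNBS and 1546.5 in later saline. The TNBS pools of weeks 8, 10 and 12 read 1138.5, 1545.8 and 1847.7. It was low in the week 6 and the week 8 TNBS pools, by log2 differences of -0.59 and -0.44, and close to the saline arrays thereafter. The week 6 difference was under 1.5-fold in 3 of 13 alternative settings (to -0.43). Its partner Ndufv2, an iron-sulphur subunit, had the smallest TNBS effect of the complex, with 1146.9 and 1228.8 in week 6 saline, 1210.8 in week 6 TNBS, 1637.7 in later saline, and 2136.6, 1533.6 and 1386.9 in the later TNBS pools. All later arrays were above the week 6 arrays, the week 8 TNBS pool most of all. Ndufs1, the largest iron-sulphur subunit, was the only core subunit higher in every TNBS pool than in every saline pool, from 628.6 to 698.3 against 570.0 to 609.0.

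Ndufa8, an accessory subunit on the outer face of the membrane, read 287.8 and 298.4 in week 6 saline and 185.6 in week 6 TNBS. Later saline read 434.5, and the TNBS pools of weeks 8, 10 and 12 read 337.0, 246.5 and 279.3. Each TNBS pool lay below its own saline pool, by 1.58-fold, 1.29-fold, 1.76-fold and 1.56-fold in order of time, but the groups overlapped, because later saline was the highest array and the week 8 TNBS pool exceeded week 6 saline. Across the pools the TNBS effect, with the control set as a covariate, was -0.63 ± 0.18 (log2, SE; unadjusted p = 0.0085, adjusted p = 0.886, limma), the largest of any member. Against week 6 saline the differences at weeks 10 and 12 shrank to -0.25 and -0.069.

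Ndufab1, the mitochondrial acyl carrier protein, and Ndufb10, an accessory subunit of the membrane arm, were lower in all 4 TNBS pools than on all saline arrays. Saline values are given here and below as both week 6 arrays and then the later pool, where 3 stand together. Ndufab1 read 641.9 and 679.4 in week 6 saline and 641.6 in later saline, and 518.1, 492.2, 482.9 and 481.7 in the TNBS pools in order of time. Ndufb10 read 830.1, 796.0 and 819.7 in saline, and 554.7, 707.0, 674.1 and 644.3 with TNBS. Neither group overlapped. The TNBS effects were -0.38 ± 0.15 and -0.39 ± 0.16 (log2, SE; unadjusted p = 0.033 and 0.039, adjusted p = 0.886 for both, limma). Ndufa7 was the accessory subunit with the opposite order, at 2082.2 to 2324.2 in TNBS pools, all above the later saline pool (1796.0) and above the mean of the week 6 saline arrays (2112.8 and 1925.2), though the first of these arrays alone read higher than the lowest TNBS pool.

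Most accessory subunits of complex I were higher at week 8 than in later saline. Of the 21 accessory subunits, 16 lay above later saline at week 8, led by Ndufb3 (0.49), Ndufa5 (0.47) and Ndufb11 (0.40), and none was 1.5-fold higher. Ndufc1 read 697.4 and 759.9 in week 6 saline but 400.8 in later saline, and Ndufa10 read 155.0, 191.7 and 110.7. These were the 2 members at least 1.5-fold lower in the later than in the week 6 saline pool (all genes, 5.03%), and none was as much higher (all genes, 5.07%). Ndufb2 was read by a pair of probe sets above the filter, and they disagreed: that used here lay at 0.32 at week 8 and the other at -0.25. The assembly factor Ndufaf1 reached a signal of 100 in the week 12 TNBS pool and in no other pool, with 75.6 to 110.9 over the arrays.

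The rest of the accessory subunits stayed under 1.5-fold in every matched comparison. Ndufa2 and Ndufb5 lay at 0.35 and 0.28 at week 8 with little difference later, and Ndufb6 and Ndufb7 at 0.23 and 0.16. Ndufb8 and Ndufv3 lay low at weeks 6, 10 and 12, with -0.25, -0.42 and -0.37 for Ndufb8 and -0.33, -0.43 and -0.22 for Ndufv3, and near saline at week 8 (0.028 and 0.035). Ndufa9 was low at weeks 6, 8 and 12, and Ndufa13, also known as a cell death regulator, at weeks 10 and 12 (-0.22 and -0.30). Ndufa3, Ndufa6 and Ndufb9 lay within -0.20 and 0.23 throughout.

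Complex II had no upward shift at week 8 on the deposited scale, its 6 genes having medians of -0.056, -0.11, -0.090 and -0.032 in order of time; with equal array medians the week 8 value was 0.069, under the 0.11 of all genes. Sdhc, a membrane anchor that holds the ubiquinone site together with Sdhd, read 1486.6 and 1558.3 in week 6 saline and 993.4 in week 6 TNBS, a 1.53-fold difference that was under 1.5-fold in 3 of 13 alternative settings (to -0.49, log2). Later saline read 1396.0, and the TNBS pools of weeks 8, 10 and 12 read 1223.2, 1223.0 and 1365.0. Every TNBS pool was below every saline array, the first by far and the last by little.

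Sdhb, the iron-sulphur subunit, showed the same order without overlap, with 1223.0, 1160.9 and 1200.0 in saline against 931.7, 1084.5, 876.8 and 1047.6 with TNBS. Its probe set has a suffix for sequence shared with other transcripts. The other anchor, Sdhd, did not separate the groups, at 2237.1, 1954.2 and 2426.2 in saline and 2109.6, 2578.0, 2443.4 and 2353.4 with TNBS. The assembly factors Sdhaf1 and Sdhaf2 lay at -0.067 and -0.39 at week 8. Sdhaf2 passed the filter only through the later saline pool (101.1), the control of that comparison. Its later differences are therefore selected toward low values, and they count in the medians of the complex. Sdha, the flavin subunit that oxidises succinate, lay at -0.077 at week 6 and at 0.27 and 0.26 at weeks 10 and 12. The TNBS effects of Sdhc and Sdhb were -0.33 ± 0.18 and -0.30 ± 0.17 (log2, SE; adjusted p = 0.886 for both, limma).

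Complex III was low in the week 6 TNBS pool and high in the week 8 TNBS pool. Its 8 genes had medians of -0.13 at week 6 (6 below saline), 0.34 at week 8 (6 above), -0.13 at week 10 and -0.18 at week 12 (all 8 below). After quantile normalization the week 8 median was 0.18, and against week 6 saline the week 12 median was 0.062. Later saline itself stood 0.24 above week 6 saline in median. At week 8, Uqcrb and Uqcrh were at least 1.5-fold higher.

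Uqcrb, a subunit beside the ubiquinone site, read 1178.8 and 1316.5 in week 6 saline, 1130.2 in week 6 TNBS, 1607.0 in later saline, and 2654.9, 1410.3 and 1337.0 in the TNBS pools of weeks 8, 10 and 12. Uqcrh, the hinge protein between cytochrome c1 and cytochrome c, read 2215.0 and 2094.3, 1858.7, 2458.5, and 3746.6, 2587.9 and 2217.8 in the same order. Both were highest by far in the week 8 TNBS pool and lowest in the week 6 TNBS pool, with the other pools between. At week 8 they were 1.65-fold and 1.52-fold above later saline, and under 1.5-fold after quantile normalization (log2 0.50 and 0.36). The probe set of Uqcrb has a suffix for shared sequence, and that of Uqcrh is a plain one. The small subunits Uqcrq and Uqcr10 lay at 0.41 and 0.35 at week 8, whereas Uqcr11 lay at -0.0078.

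Uqcrc1 and Uqcrc2, the large core proteins on the matrix side, had differences of opposite sign at weeks 6 and 8. Uqcrc1 read 949.7 and 1136.9 in week 6 saline and 598.2 in week 6 TNBS, 1189.0 in later saline, and 879.3, 1210.5 and 1105.2 in the TNBS pools of weeks 8, 10 and 12. The week 6 TNBS pool was the lowest array and the week 8 TNBS pool the next, 1.74-fold and 1.35-fold under their saline pools. Uqcrc2 lay at 0.11 at week 6 and 0.33 at week 8. The TNBS effect of Uqcrc1 was -0.42 ± 0.21 (log2, SE; unadjusted p = 0.081, adjusted p = 0.886, limma), and the difference between later and week 6 pools was 0.57 ± 0.21 (adjusted p = 0.400).

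Cyc1, the haem-bearing cytochrome c1, which takes part in electron transfer, read 2391.6 and 2371.1 in week 6 saline, 2153.6 in week 6 TNBS, 3224.0 in later saline and 3653.6, 2909.6 and 2417.6 in the later TNBS pools. It was again lowest at week 6 with TNBS and highest at week 8. A second probe set of Cyc1 disagreed at weeks 8, 10 and 12, with -0.21, 0.41 and 0.17 against 0.18, -0.15 and -0.42. Uqcr10, with the smallest TNBS effect of the complex, read 1794.3, 1757.8 and 2136.5 in saline and 1708.2, 2718.4, 1968.2 and 1977.7 with TNBS.

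Complex IV, cytochrome c oxidase, had medians of -0.034, 0.052, -0.095 and -0.24 over 11 genes. Its 6 accessory subunits were higher at week 8 (median 0.35, 5 of 6 above later saline) and lower at week 12 (median -0.31, all 6 below). The 4 assembly factors had medians of -0.0039 and -0.023 in these comparisons. The week 8 median of the complex was 0 after quantile normalization.

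Cox7b, a small subunit of the membrane part, read 1529.3 and 1535.5 in week 6 saline, 1730.0 in week 6 TNBS and 1854.8 in later saline. The TNBS pools of weeks 8, 10 and 12 read 3175.5, 1676.5 and 1694.6. The week 8 TNBS pool stood alone above a narrow band that held the other 6 arrays, 1.71-fold over later saline, and under 1.5-fold (log2 0.57) after quantile normalization. Cox7a2, the isoform of most tissues, read 2818.0, 2732.9 and 3120.7 in saline and 2678.5, 4565.6, 3140.3 and 2971.6 with TNBS. It had the same single high pool, at 0.55 (log2), as had Cox6c at 0.46, while Cox6a1, the isoform beside the muscle form Cox6a2, lay at 0.24.

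Cox5b, the zinc-binding subunit, read 1831.1, 1720.6 and 1985.4 in saline and 1359.9, 2058.2, 1553.4 and 1373.7 with TNBS. It was low in all TNBS pools but that of week 8, which was the highest array. Cox4i1, the regulatory subunit of most tissues, was the member at least 1.5-fold lower at week 8. Its probe set is weak, with 132.3, 154.7 and 159.9 in saline and 113.3, 102.8, 134.7 and 112.4 with TNBS, and its suffix marks sequence shared with other genes. In 5 of 8 alternative settings the 1.56-fold difference was under 1.5-fold.

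Among the assembly factors, Cox16 lay at 0.56 at week 8 and Cox17, the copper chaperone, at -0.44 at week 10. Cox7a2l, which joins complexes III and IV into supercomplexes, had the smallest TNBS effect of complex IV, with 833.2, 828.2 and 893.9 in saline and 796.8, 785.3, 966.7 and 1008.3 with TNBS. The tissue-restricted isoforms were mostly under the filter. Cox6a2, the isoform of heart and skeletal muscle, was under 50 on all arrays, and Cox7a1, Cox8b and Cox6b2 reached at most 96.6, 95.2 and 69.3. Cox8c, an isoform known from testis, passed, with 302.2, 349.5 and 275.2 in saline and 318.0, 230.0, 180.9 and 220.1 with TNBS, 1.52-fold lower at week 10. That difference was under 1.5-fold in 3 of 9 alternative settings, at -0.30 (log2) with the mean over probe sets. All week 6 arrays of Cox8c were above its later ones.

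Complex V had a median of 0.40 over 11 genes at week 8, beside -0.068, -0.012 and -0.098 at weeks 6, 10 and 12. The membrane and outer stalk subunits stood higher, with a median of 0.46 over 7 genes. The 4 members of the F1 head (Atp5a1, Atp5c1, Atp5d and Atp5e) had 0.027. The beta subunit of the head, Atp5b, was not among the members, so the head was read in part. The difference between these subgroups was not tested, and after quantile normalization the week 8 median of the complex was 0.22. With the mean over probe sets it was 0.19, and with no filter on low values 0.093. Against week 6 saline it was 0.45, below the 0.62 of complex III.

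Atp5j, coupling factor 6 of the outer stalk, gave the largest difference of any member. It read 1065.1 and 873.4 in week 6 saline, 1065.1 in week 6 TNBS and 1107.0 in later saline. The TNBS pools of weeks 8, 10 and 12 read 2369.2, 1450.0 and 987.2. The week 8 TNBS pool was 2.14-fold above later saline, the week 10 TNBS pool stood next, and the remaining arrays overlapped. Atp5l, the membrane subunit g, read 3011.8, 2934.2 and 3053.8 in saline and 2836.6, 4311.7, 3472.0 and 2968.6 with TNBS, again with 1 pool high. The membrane subunits Atp5md and Atp5mpl lay at 0.54 and 0.41 at week 8, while Atp5o, the stalk subunit that caps the head, lay at -0.12.

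Of the head subunits, Atp5e, the epsilon subunit, lay at 0.40 at week 8 and -0.27 at week 12. Atp5a1, the alpha subunit, lay between -0.17 and 0.19 in the 4 comparisons. Atp5c1, the gamma subunit that turns inside the head, had the smallest TNBS effect of the complex, with 2063.8, 1963.4 and 2356.4 in saline and 2177.9, 2150.1, 2275.9 and 2483.7 with TNBS. Averaged over the 4 comparisons it lay at 0.0018 and its other probe set at -0.0084. Atp5d, the delta subunit, read 477.7, 360.8 and 356.6 in saline and 289.3, 324.1, 339.5 and 276.7 with TNBS, all TNBS pools below all saline arrays. In the later comparisons the gap was smaller than that between both week 6 saline arrays. This probe set has a suffix for shared sequence, as have its other probe sets above the filter, in which the groups overlapped. Those read 297.9, 281.8 and 332.9 in saline against 222.0 to 297.0 with TNBS, and 200.2, 200.4 and 253.7 against 167.0 to 221.8. Atp5k is a small membrane subunit whose promoter has an NRF1 and an ETS match. It read 135.2 and 93.9 in week 6 saline, 130.6 in week 6 TNBS, 114.7 in later saline and 157.9, 93.1 and 68.0 in the later TNBS pools. The last was 1.69-fold lower, from a weak signal, and the week 6 saline arrays differed widely. It was under 1.5-fold in 2 of 9 alternative settings, at -0.20 (log2) with a floor of 100.

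Cycs, the somatic cytochrome c that shuttles between complexes III and IV, read 148.4 and 188.7 in week 6 saline, 213.5 in week 6 TNBS and 186.9 in later saline. The TNBS pools of weeks 8, 10 and 12 read 292.3, 146.4 and 159.9. Both early TNBS pools were the highest arrays, 1.28-fold and 1.56-fold over their saline pools, and both late ones lay within or at the edge of the saline range. The week 8 difference was under 1.5-fold in 1 of 9 alternative settings (0.53, log2).

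**Figure D4:**
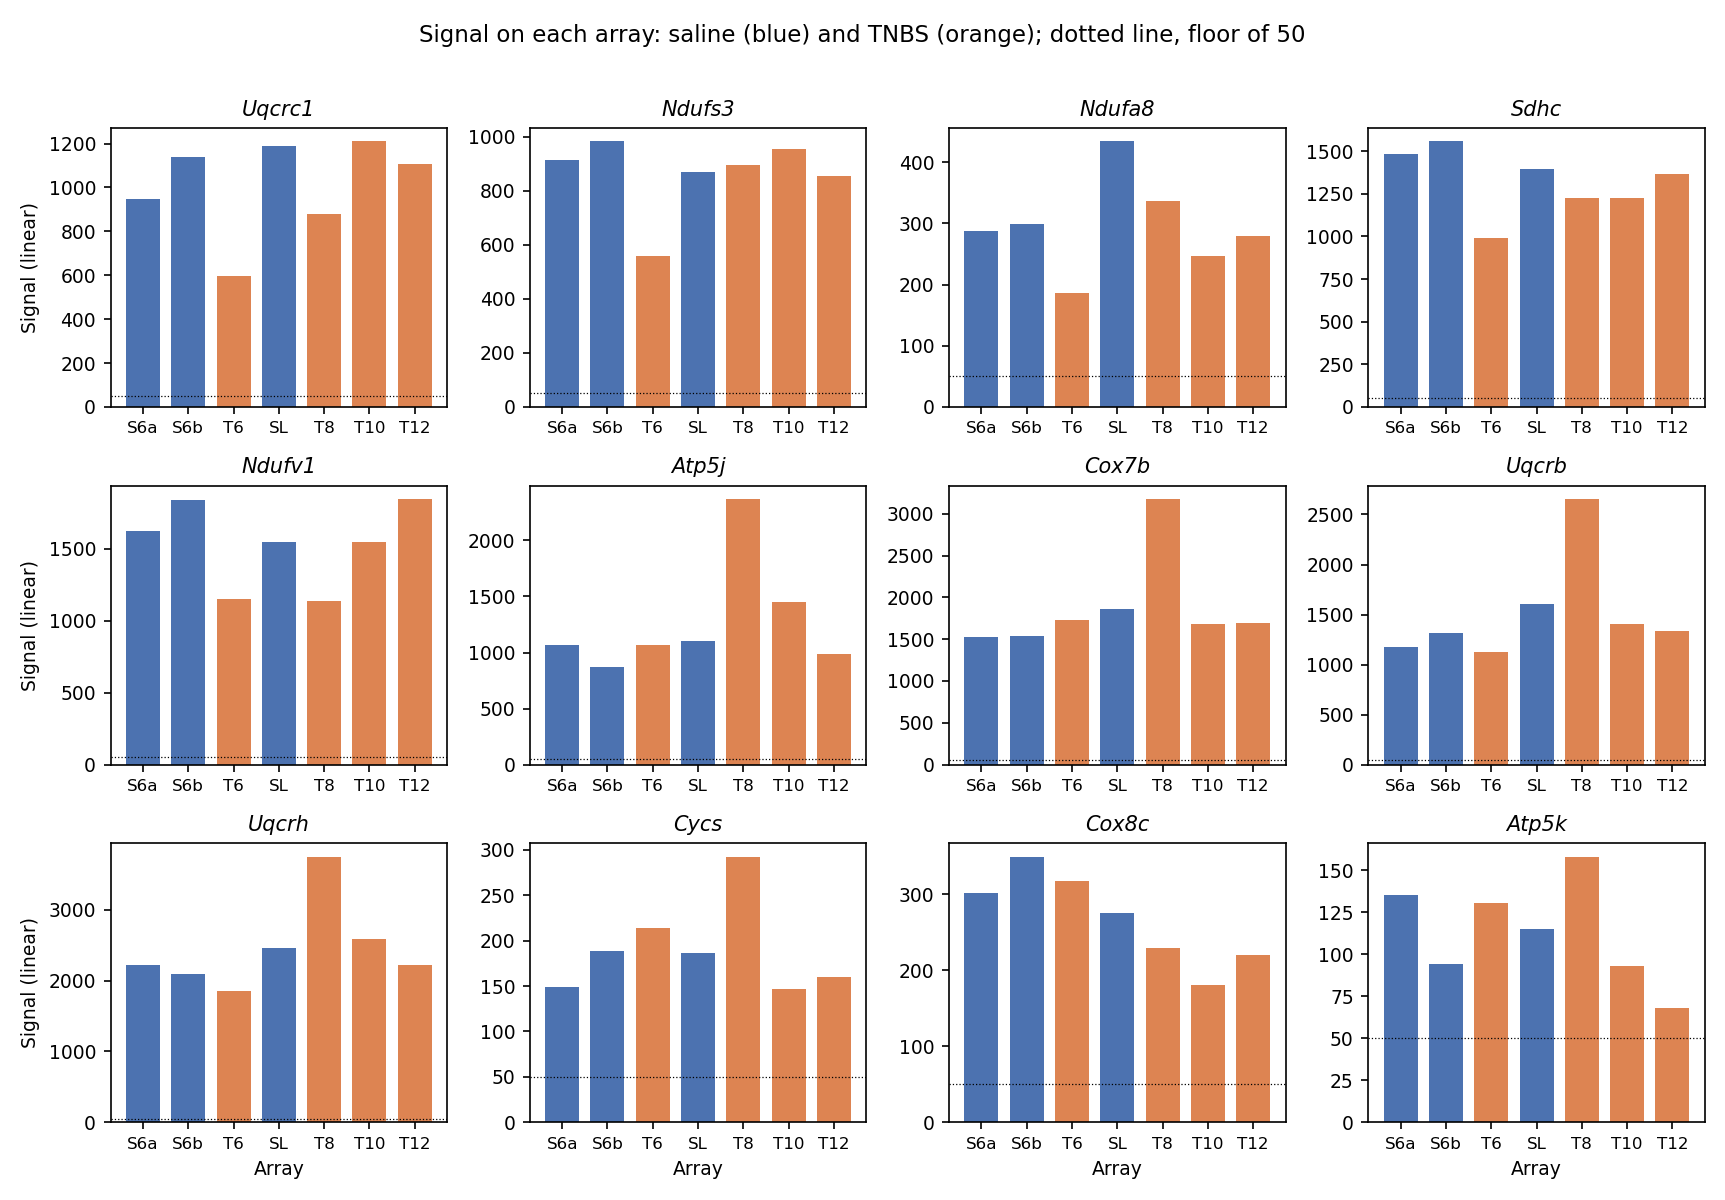
Signal (linear scale from 0) of 12 members on each array, with saline in blue and TNBS in orange. S6a and S6b are both arrays of the week 6 saline pool, SL is the later saline pool, T6 to T12 are the TNBS pools of weeks 6 to 12, and the dotted line is the floor of 50. Uqcrc1, Ndufs3, Ndufa8, Sdhc and Ndufv1 are low in T6, and Atp5j, Cox7b, Uqcrb, Uqcrh and Cycs are highest in T8.

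The 16 members that did not pass the filter give no comparison. Under 50 on all arrays were 7: Atp5j2, Cox5a, Cox6a2, Cox8a, Cox14, Ndufa12 and Ndufc2. The other 9, Atp5g1, Atp5pb, Cox6b1, Cox6b2, Cox7a1, Cox8b, Ndufa1, Ndufaf4 and Ndufs4, reached between 53.5 and 98.6 on their highest array. Cox5a and Cox8a are subunits of the enzyme in nearly all cells, and their probe sets give no level of the transcript here. Of the 63 that passed, 59 had all 6 pools at 100 or more, and 2 passed through 1 pool. These were Ndufaf1, through the week 12 TNBS pool, and Sdhaf2, through the later saline pool. Probe sets with a letter suffix, which marks shared or cross-matching sequence, represented 16 of the 63. Their median at week 8 was 0.26, against 0.088 for the 47 plain probe sets. They included those of Uqcrb, Cox6c and Atp5md, high at week 8, and those of Cox4i1 and Sdhb, low there.

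No member passed the models fitted over all pools. With the 4 TNBS pools against both saline pools and the control set as a covariate (limma, 3 residual degrees of freedom, adjusted p under 0.05), 0 of 63 members and 0% of all genes were called. At an unadjusted p under 0.05 there were 3 members, Ndufa8, Ndufab1 and Ndufb10, all lower (all genes lower, 2.29%), and none higher (2.83%). The median TNBS effect was -0.034 over the members and -0.023 over all genes. The members' median difference between later and week 6 pools was 0.17, with 47 of 63 above 0. Over all genes it was 0.0010, with 2168 of 4316 above 0. Again 0 members were called (0% of genes), and 5 had an unadjusted p under 0.05: Ndufa8, Uqcrc1 and Atp5md higher in later pools (all genes, 5.54%), Ndufa10 and Cox8c lower (5.98%). The interaction term called 0 members (0% of genes; 2 residual degrees of freedom), with Ndufs3 alone at an unadjusted p under 0.05 and higher (all genes, 0.718%), and none lower (1.14%). TNBS pools of different times act as replicates in these models, so p-values measure the spread between pools.

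Separation of the groups was counted as well. All 4 TNBS pools lay below both saline pools for 7 members (11.1%, all genes 9.04%), namely Ndufab1, Ndufb10, Sdhb, Sdhc, Cox4i1, Atp5d and Atp5g2. They lay above them for 2 (3.17%, all genes 6.37%), Ndufs1 and Ndufa7, with the week 6 saline arrays averaged. Atp5d separated by the probe set used here and not by its others above the filter. Each TNBS pool lay below its own saline pool for 11 members (17.5%; all genes, 15.3%) and above it for 3 (4.76%; all genes, 11.6%). These shares were below those of all genes in the upward direction and slightly above them in the downward direction.

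Other genes of mitochondrial metabolism are given beside the members. The tricarboxylic acid cycle list also held Pdha1, Pdhb and Dlat, subunits of pyruvate dehydrogenase, which feeds the cycle. Of this list, 15 of 16 genes on the array passed, with medians of -0.14, -0.15, 0.024 and 0.10 in order of time. On the deposited scale the list was thus low at week 8 (all genes, -0.067), where the respiratory genes were high. It was not recomputed with equal array medians, which raised the week 8 median of all genes to 0.11. The difference between the lists was not tested. Idh3a and Idh2, isocitrate dehydrogenases, had the largest TNBS effects of that list, at -0.54 and -0.43. Of the list of carriers and porins that exchange ATP, ADP and phosphate, which also held Ckmt1, a mitochondrial creatine kinase, 5 of 7 passed. Their medians were -0.25, -0.084, -0.18 and -0.16, of which those at weeks 6, 10 and 12 were the values of Ckmt1 itself. The largest TNBS effects were those of the ADP and ATP carriers Slc25a5 (-0.34) and Slc25a4 (-0.20), with Ckmt1 also at -0.20. The import and chaperone list (14 of 16 passed) had medians of 0.041, 0.069, -0.0099 and 0.095, with Tomm20, an import receptor, at -0.44 and Hspe1, a matrix chaperonin, at 0.39. Glycolysis genes (13 of 15 passed) had medians of -0.038, 0.0053, 0.015 and -0.019, with Hk1, a hexokinase bound to mitochondria, at -0.51 and Slc16a1, a transporter of lactate and butyrate, at -0.17. No gene of these lists passed limma's test (adjusted p under 0.05).

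Among the regulators of mitochondrial biogenesis, 6 of 13 passed, with medians of -0.058, -0.37, 0.052 and 0.13. Ppara, a receptor for fatty acids, and Tfb2m, a mitochondrial transcription factor, had the largest TNBS effects, at -0.27 and -0.19. Ppargc1a and Tfam, a coactivator and a packaging factor of mitochondrial DNA, were under 50 on all arrays. The cytosolic ribosomal protein genes, a reference set of strong transcripts, had medians of -0.026, 0.041, -0.047 and -0.15 over 23 of 35 genes. Both uncoupling proteins on the array and all 5 genes of the brown fat list were under 50 on all arrays.

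Markers of the cell types that the tissue could hold are given for the same pools. The absorptive colonocyte list, of which 14 of 15 genes passed, summed to 36013 and 33652 in week 6 saline, 31435 in week 6 TNBS, 38249 in later saline and 44547, 32980 and 30582 in the later TNBS pools. Lgals4 and Krt8 gave the strongest signals of that sum on every array. The largest TNBS effects in that list were those of Fabp2 (-0.45) and Car4 (-0.40). The smooth muscle markers were led by Smtn (-0.53) and Myh11 (-0.41). The 9 leukocyte markers were all above saline at week 6 (median 0.93), and the list summed to 4240 in week 6 TNBS against 2226 and 2198 in week 6 saline and 1988 to 2429 on the later arrays, with Itgb2 and Adgre1 under 50 on all arrays. Cd53 and Tyrobp had effects of 1.51 and 0.93 (adjusted p = 0.165 and 0.886, limma). Of the goblet cell list, Fcgbp had an effect of -0.29 and Agr2 one of 0.19. The pancreas list summed to 3921 in week 6 TNBS and 5813 in week 8 TNBS and to between 233.9 and 729.7 elsewhere, with effects of 2.20 for Prss2 and 1.54 for Ctrb1. Of the skeletal muscle list 1 of 14 genes passed, Pvalb (0.28), and of the cardiac list 1 of 8, Actc1 (-0.26). The adipose list (4 of 9 passed) had medians of 0.21, -0.059, -0.13 and -0.59, with Scd1 at 0.80 and Pck1 at -0.63. The 10 proliferation genes lay above saline at week 6 (median 0.76), 10 of 10, led over all pools by Mki67 (0.58) and Ccna2 (0.49). What part these lists had in the members' values was not tested.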

How the data were processed

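Total RNA of each pool (10 µg) was labelled as biotin cRNA and hybridised to an oligonucleotide array. The authors deposited signal intensities on a linear scale, computed with Microarray Suite (MAS) 5.0 and scaled to a target of 150, per the labels. No detection calls were used here, and each value is 1 array's summary of a probe set.

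From these intensities, values under 50 were raised to 50 and log2 was taken. Each gene was represented by its probe set of highest mean log2 value, among 10833 probe sets with 1 symbol in the platform annotation; 396 with several symbols and 1193 with none were left out. Genes needed a signal of 100 in their highest pool. Both week 6 saline arrays were averaged and counted once.

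A matched comparison sets 1 pool against 1 pool, so it has no test. Models were fitted with limma 3.58.1 in R 4.3.3 (eBayes with an intensity trend, terms for TNBS, control set and their interaction) over all 4316 genes, with Benjamini-Hochberg adjustment. The TNBS term was also run on simulated data with planted changes of 2-fold or more. Nearly all differences of the members were smaller, and no change was planted in the other terms. The simulation therefore does not show what the models can find at the size of the members' differences. Promoters came from RefSeq (GRCm38.p6); the sources used here give no build for the arrays.

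The members and lists were chosen with earlier results of these data known. Described in full were members with a 1.5-fold difference in a matched comparison, any that passed a model, the 2 largest and the smallest TNBS effects in each complex, tissue-restricted isoforms, and members whose probe sets disagreed in sign; from the other lists, the 2 genes of largest TNBS effect each. Ndufab1, Ndufs1, Ndufa7, Ndufc1, Ndufa10, Sdha and the members given by 1 or 2 log2 differences were added after their values were seen. Alternatives were other floors, filters, scalings, probe set summaries, controls and omitted pools.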

Additional observations from a re-analysis of the deposited data

How the results depend on the processing

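The members' median differences at weeks 6, 8, 10 and 12 were -0.082, 0.11, -0.048 and -0.11, and the alternatives moved them as follows, by more than the SD of 0.0079 that either week 6 saline array gave. With equal array medians they were -0.11, 0.28, 0.089 and -0.042, and with quantile normalization -0.096, 0.017, -0.064 and -0.084. With the other saline pool as control they were -0.19, 0.20, 0.13 and 0.022. Without a filter they were -0.056, 0.052, -0.024 and -0.087, and with a signal of at least 400 the first 3 were -0.10, 0.19 and -0.024. The mean over probe sets gave -0.066, 0.074 and -0.037 for the first 3; log2(value + 50) gave -0.066 and 0.093 at weeks 6 and 8, and a floor of 100 gave -0.037 at week 10. Among alternatives chosen after seeing the data, plain probe sets gave -0.073, 0.078 and -0.095 at weeks 6, 8 and 12, and genes with a geometric mean signal of at least 1000 gave 0.30, -0.018 and -0.084 at weeks 8, 10 and 12. Leaving out either week 6 saline array gave -0.090 to -0.079 at week 6, moves smaller than that SD. The week 6 and week 8 medians thus kept their sign under every alternative run, and those at weeks 10 and 12 did not.

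Of single genes, Uqcrc1 and Ndufs3 at week 6 and Atp5j at week 8 (0.96 to 1.30) stayed past 1.5-fold in each alternative run. Members 1.5-fold higher at week 8 numbered 3 to 15 (3 after quantile normalization, 14 with equal array medians, 15 with week 6 saline as control). The models called 0 members under all settings but that with no filter. There the TNBS term called 1 of 79 (Atp5pb) and the interaction 2 (Atp5g1 and Cox6b2), all near the floor. Of all 8251 genes in that setting, the TNBS term called 0 higher and 17 lower, and the control set term 0 higher and 23 lower. The interaction called 210 higher and 278 lower. With a floor of 100 the interaction called 61 of 4317 genes higher and 124 lower. Leaving out any 1 TNBS pool called 0 members. Over all genes, the term for the control set then called 1 gene higher and 3 lower without the week 8 TNBS pool, and the TNBS term 2 higher without that of week 12. No paired analysis was possible because only the week 6 saline pool has more than 1 array. Signals near the floor, and 1 pool per group, limit what can be seen; the cause of the shifts was not tested.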
